A study of Mus musculus with 10 samples.

Results

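Enteric neurons and glia were followed in the mouse colon through 37 genes chosen by name from the 18398 genes of the deposited table. Of these, 32 are neuronal and 5 are glial, and they were chosen with earlier results of these data known. The RNA came from colon tissue of wild-type mice, with 5 libraries on a normal diet and 5 on a pro-inflammatory diet. The sources used here give neither the composition and duration of the diets nor the strain, age and sex of the animals, and the labels do not say that the libraries came from separate animals. The p-values below therefore measure the spread between these libraries, which may be technical in part. Levels are in FPKM, which counts fragments per length of the gene and per total of the library. The libraries are numbered 1 to 5 within each diet, as in their titles, and equal numbers do not pair them. Where a gene's values follow each other, they are those of libraries 1 to 5 of the normal diet against libraries 1 to 5 of the pro-inflammatory diet.

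The enteric nervous system lies in the gut wall as a network of ganglia between and beside the muscle layers. Its neurons descend from neural crest cells that need the receptor Ret, its co-receptor Gfra1 and the endothelin receptor Ednrb to settle the bowel. Excitatory motor neurons use acetylcholine, inhibitory motor neurons use nitric oxide and the peptide Vip, and glia that carry Sox10 and S100b surround them. In whole tissue these cells are a small share of the RNA, and a lower value of their genes cannot tell fewer cells apart from less RNA per cell.

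Hoxb13, a homeobox gene of the most distal hindgut, stood at 211 to 341 FPKM in 8 libraries, at 20.9 in pro-inflammatory diet library 5 and at 0.417 in pro-inflammatory diet library 2. These 2 libraries, below 50 FPKM, are called Hoxb13-low here, and the comparison is given with all 10 libraries and without them (5 against 3). The deposited values were whole multiples of 1 read for each gene, and the libraries held 15652783 to 18341956 reads on genes. A test was run for the genes with a mean of at least 1 FPKM, 12345 genes in all, and 30 of the 37 members were among them (26 neuronal, 4 glial). Elavl3, Scn9a, Chat, Npy, Cartpt, Th and Gfap lay below that level. The 12 epithelial and 15 smooth muscle marker genes, such as Epcam and Myh11, all lay above it.

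The members' levels spanned a wide range. Erbb3, a receptor of neuregulin in glial precursors that the gut epithelium also makes, had the highest mean at 65.7 FPKM. L1cam, an adhesion molecule of axons, followed at 27.1 and Vip at 19 FPKM. Th, tyrosine hydroxylase, was lowest at 0.157. The other 4 glial members had means between 0.953 (Gfap) and 2.37 (Ednrb).

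The 120 bases before the start sites of 3 peptide genes, from RefSeq on GRCm38.p6, are shown for their orders of libraries. Vip was lowest in pro-inflammatory diet libraries 3 and 4, Gal was highest and Npy lowest in the Hoxb13-low libraries. Npy had only 2 to 21 reads per library, so its order is uncertain. Capitals mark the letters of the cAMP response element core TGACGT, the TATA box TATAAA and the GC box GGGCGG, each searched on both strands. The windows are chr10:5639098-5639217 (plus strand) for Vip, chr19:3414545-3414664 (minus strand) for Gal and chr6:49822590-49822709 (plus strand) for Npy.
Vip: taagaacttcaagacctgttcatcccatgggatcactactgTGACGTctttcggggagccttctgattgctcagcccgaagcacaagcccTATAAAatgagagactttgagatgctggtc
Gal: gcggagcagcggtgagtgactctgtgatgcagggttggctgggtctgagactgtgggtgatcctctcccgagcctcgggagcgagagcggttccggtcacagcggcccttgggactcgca
Npy: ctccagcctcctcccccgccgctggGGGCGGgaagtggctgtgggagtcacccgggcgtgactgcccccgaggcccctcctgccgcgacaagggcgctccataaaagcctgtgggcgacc

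The Vip stretch holds TGACGT and TATAAA, the Npy stretch GGGCGG and the Gal stretch none of the 3 motifs. RefSeq promoters, from 250 bases before to 50 after a start site, were matched for 26 of the 37 members, which have 32 promoters. TGACGT stood in 6 of the 32, belonging to 6 members (Cartpt, Chat, Ednrb, Elavl4, Th and Vip), and in 7.51% of all 32851 promoters. TATAAA stood in 3 of the 32 (3 members, Elavl3, Prph and Vip; 13.6% of all promoters) and GGGCGG in 16 of the 32 (15 members; 35.7% of all). These are matches of letters, and no binding was measured.

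No member differed between the diets at an adjusted p under 0.05. With all 10 libraries, 0 of 30 members passed in limma, as did 0% of all genes tested (Benjamini-Hochberg adjustment over 12345 genes). The same count of 0 came from voom on the recovered reads and from an exact permutation test of each gene. At an unadjusted p under 0.05, 1 member was lower on the pro-inflammatory diet (Rims1, beside 9.25% of all genes) and 0 were higher (beside 8.16%). The log2 fold change, pro-inflammatory minus normal diet on log2(FPKM + 1), was negative in 23 of 30 members, beside 52.9% of all genes. Its median was -0.11 over the members, -0.13 over the 26 neuronal ones and 0.07 over the 4 glial ones, beside -0.01 over all genes.

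Without the Hoxb13-low libraries the log2 fold change took a lower value in 29 of 30 tested members, neuronal and glial, Syn2 being the exception. The same count was not taken over all genes, so it has no share to stand beside. Of the libraries left out, pro-inflammatory diet library 2 was among the 2 highest of 10 for 13 of the 37 members and library 5 for 18. Normal diet library 1, which was kept, was so for 18 as well, and these counts were not taken over all genes either. Again 0 of 30 members passed the adjusted threshold in limma (0% of all genes). At an unadjusted p under 0.05, 8 members were lower (Elavl4, Ret, Syt1, Rims1, Rab3c, Nos1, Vip and Gal, beside 7.36% of all genes) and 0 were higher (beside 8.06%). Log2 fold changes were negative in 27 of 30 members, beside 51% of all genes, the exceptions being Syn2, S100b and Sox10. Their median was -0.40 over the members and -0.42 over the neuronal ones, and -0.07 over the glial ones, while that of all genes was -0.00448. The pro-inflammatory diet libraries left in this fit were not alike. Mean log2(FPKM + 1) of the 26 tested neuronal members was 2.61 in library 1, inside the normal range of 2.37 to 2.80. It was 2.06 in library 3 and 1.85 in library 4, below that range. The plot of log2 fold changes sets both fits side by side.

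**Figure D1:**
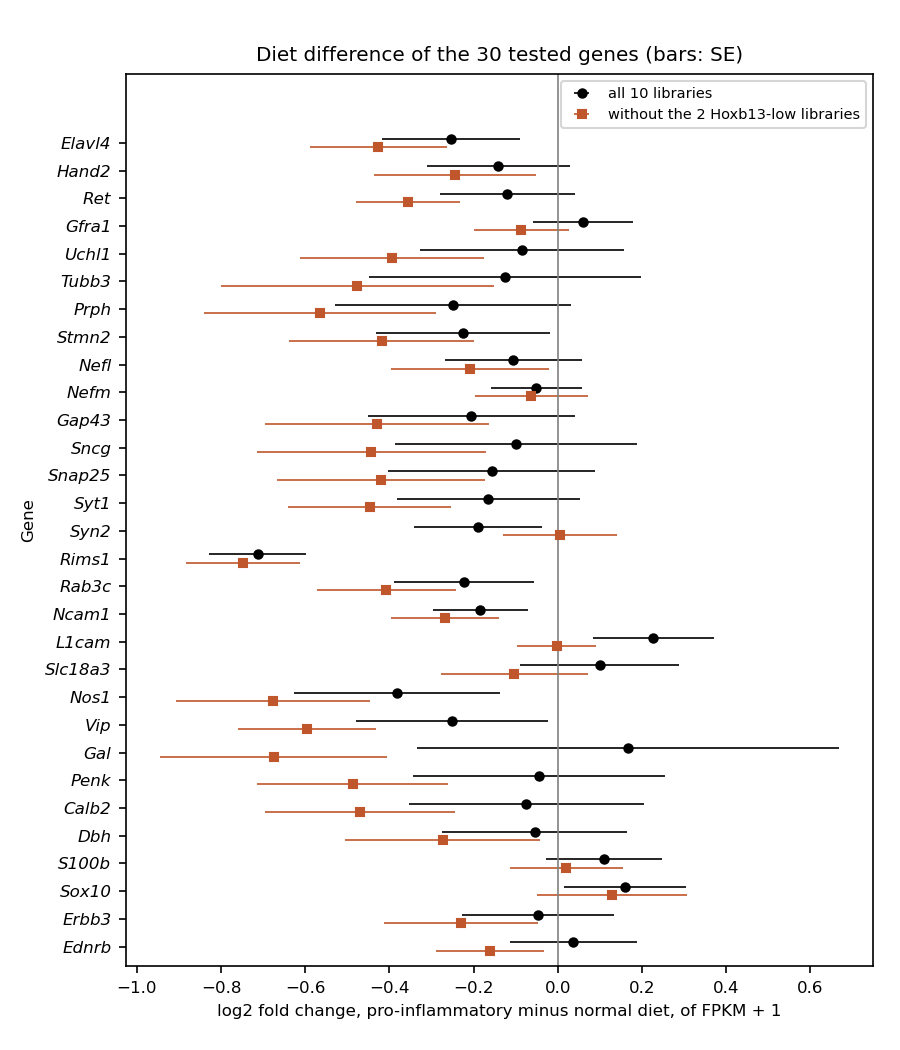
Log2 fold change of FPKM + 1 (horizontal axis, pro-inflammatory minus normal diet) for each of the 30 tested genes, with its standard error as a bar, from all 10 libraries (black circles) and without the 2 Hoxb13-low libraries (orange squares). Rims1 lies farthest to the left with all 10 libraries at -0.71, and Gal moves from 0.17 to -0.68 when the 2 libraries are left out.

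Regulators of neuronal identity came first by role. Hand2, a transcription factor needed for enteric neurons that gut mesenchyme also makes, was at 9.27, 6.25, 9.73, 8.02 and 6.26 FPKM in normal diet libraries 1 to 5 and at 8.76, 7.03, 6.33, 4.70 and 8.77 in pro-inflammatory diet libraries 1 to 5. Elavl4, an RNA-binding protein of neurons (HuD; chromosome 4, 110203722 to 110351909, minus strand, GRCm38), was at 1.72, 0.807, 1.64, 1.03 and 1.09 against 0.855, 1.08, 0.629, 0.509 and 1.40 in the same order. Both genes were lowest in pro-inflammatory diet library 4, and the diets overlapped. The log2 fold change of Elavl4 was -0.25 (SE 0.16, limma adjusted p = 0.415) and -0.43 without the Hoxb13-low libraries (SE 0.16, adjusted p = 0.283). That of Hand2 was -0.14 and -0.24. Elavl3 (HuC), below the level for testing, ran from 0.661 to 0.96 FPKM on the normal and from 0.313 to 0.762 on the pro-inflammatory diet. Its 3 values there outside the Hoxb13-low libraries lay below all 5 of the normal diet, as did those of 4.33% of all genes tested. In a fit with no filter on low values it had a log2 fold change of -0.21 (limma adjusted p = 0.292).

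The receptors of the glial cell line-derived factor showed a wider spread on the pro-inflammatory diet. Ret, the tyrosine kinase (chromosome 6, 118151745 to 118197718, minus strand), was at 3.0, 2.17, 2.95, 2.66 and 2.36 FPKM on the normal and at 2.31, 3.32, 1.71, 1.51 and 3.18 on the pro-inflammatory diet, libraries 1 to 5. Gfra1, which binds the factor and presents it to Ret, was at 2.44, 1.76, 2.19, 1.82 and 2.14 against 2.28, 2.76, 1.71, 1.69 and 2.67 FPKM. For both, the Hoxb13-low libraries 2 and 5 were the highest of all 10 and pro-inflammatory diet libraries 3 and 4 the lowest. With values on both sides of the normal diet, the log2 fold change was -0.12 for Ret (SE 0.16, limma adjusted p = 0.697) and 0.06 for Gfra1. Without the Hoxb13-low libraries it was -0.36 for Ret (SE 0.12, adjusted p = 0.259) and -0.09 for Gfra1.

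Cytoskeletal and growth proteins of neurons were lowest in pro-inflammatory diet libraries 3 and 4 for 6 of 8 genes, the exceptions being Nefl and Nefm. Uchl1 (PGP9.5), a ubiquitin hydrolase used to stain enteric neurons, was at 20.1, 13.7, 17.2, 14.6 and 12.6 FPKM in normal diet libraries 1 to 5 and at 17.5, 20.2, 10.3, 8.37 and 20.5 in pro-inflammatory diet libraries 1 to 5. Sncg, gamma-synuclein, was at 20.01, 14.99, 19.4, 12.2 and 11.6 against 18.3, 21.9, 7.66, 9.24 and 19.6 FPKM. Libraries 3 and 4 of the latter diet were the 2 lowest of 10 for each. For Uchl1, libraries 2 and 5 of that diet lay above the normal range and library 1 inside it. For Sncg, library 2 lay above that range and libraries 1 and 5 inside it. Prph, the intermediate filament peripherin, was at 9.65, 6.85, 9.92, 7.62 and 6.28 against 9.33, 9.40, 4.27, 3.05 and 9.51 FPKM. Stmn2, a microtubule regulator of growing axons, was at 11.5, 10.3, 12.5, 10.04 and 11.4 against 13.6, 11.2, 6.52, 5.77 and 12.2 FPKM, and Gap43, a growth cone protein, at 6.87, 5.36, 6.31, 4.89 and 3.63 against 6.72, 5.71, 2.87, 2.44 and 6.09 FPKM. Pro-inflammatory diet libraries 3 and 4 were the lowest for these 3 genes too, and for Tubb3, the neuronal beta-tubulin. Over the 8 genes of this role the log2 fold change was negative in each, with a median of -0.12, and of -0.42 without the Hoxb13-low libraries. The most negative of them without those libraries was Prph at -0.57 (SE 0.28, limma adjusted p = 0.35). Neurofilament genes Nefl and Nefm overlap on opposite strands of chromosome 14, and the sources used here do not say if the strand was used in counting. Their means were 1.90 ± 0.42 against 1.72 ± 0.545 FPKM for Nefl and 1.26 ± 0.292 against 1.17 ± 0.151 for Nefm (SD, n = 5 each).

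**Figure D2:**
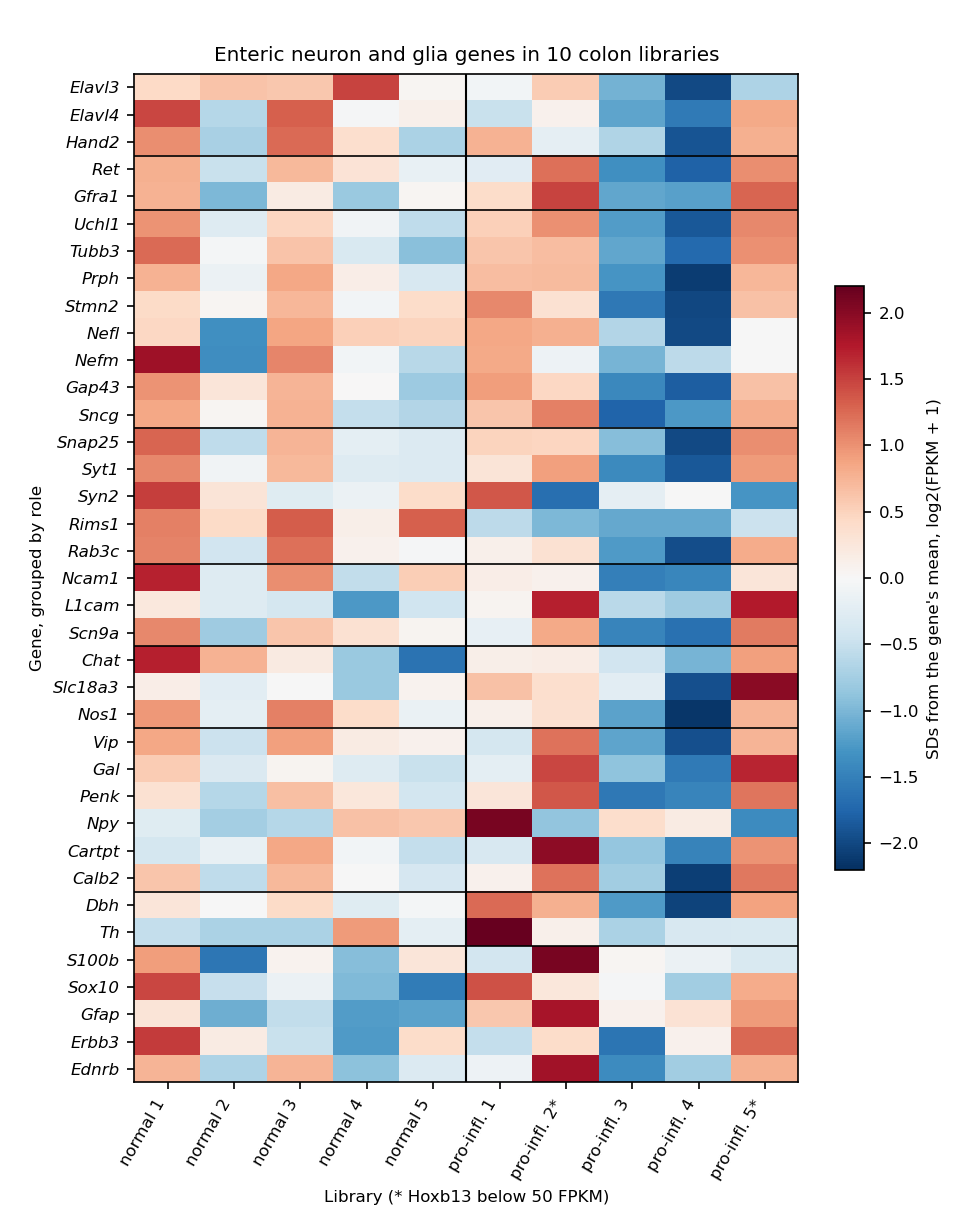
Levels of the 37 genes (rows, grouped by role with glia at the bottom) in the 10 libraries (columns), as SDs from each gene's own mean of log2(FPKM + 1), red above and blue below it. Pro-inflammatory diet libraries 3 and 4 are blue down most neuronal rows and were the 2 lowest for 23 of the 37 genes. The exceptions are the glial rows and Npy, Th, Syn2, Hand2, Nefl, Nefm, L1cam, Chat and Slc18a3.

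Of the synaptic vesicle genes, Rims1 stood apart from the rest. Rims1, a scaffold of the presynaptic active zone (chromosome 1, 22286251 to 22805994, minus strand), was at 5.10, 4.0, 5.51, 3.61 and 5.48 FPKM in normal diet libraries 1 to 5 and at 2.76, 2.34, 2.21, 2.21 and 2.88 in pro-inflammatory diet libraries 1 to 5, from 417 to 1130 reads per library. Each of the 5 pro-inflammatory diet values lay below each of the 5 normal diet values. The means were 4.74 ± 0.881 and 2.48 ± 0.318 FPKM (SD, n = 5 each). The log2 fold change of -0.71 (SE 0.11) had a limma adjusted p of 0.151, and an exact permutation test, two-sided, gave 0.00794, the smallest p that 252 splits allow, with an adjusted p of 0.207. Rims1 was the 1 member of 30 without overlap that was lower, beside 2.07% of all genes, and 0 members were higher without overlap, beside 1.77%. Without the Hoxb13-low libraries it was at -0.75 (SE 0.14, limma adjusted p = 0.234). Rims1 was again the 1 of 30 tested members that was lower without overlap (beside 4.33% of all genes), with 0 higher (beside 5.24%). Elavl3, which was not tested, was lower without overlap there too. The smallest adjusted p of any tested member ran from 0.0604, with limma's array weights, to 0.386, with genes of at least 5 FPKM, over the alternative fits.

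Other vesicle genes overlapped between the diets. Snap25, part of the complex that fuses vesicles with the membrane, was at 9.30, 5.01, 7.82, 5.64 and 5.48 FPKM on the normal and 7.17, 7.14, 4.39, 2.98 and 8.56 on the pro-inflammatory diet, libraries 1 to 5. Rab3c, a vesicle GTPase, was at 2.26, 1.41, 2.34, 1.68 and 1.62 against 1.68, 1.81, 1.05, 0.780 and 2.09 FPKM, and its log2 fold change was -0.22, or -0.41 without the Hoxb13-low libraries (SE 0.17, limma adjusted p = 0.293). Snap25, Rab3c and the calcium sensor Syt1 were lowest in pro-inflammatory diet libraries 3 and 4. Syn2, a synapsin that tethers vesicles, was at 3.72, 2.78, 2.42, 2.50 and 2.86 against 3.59, 1.66, 2.46, 2.58 and 1.83 FPKM. Here the Hoxb13-low libraries 2 and 5 were the lowest of all 10, and libraries 3 and 4 lay within the normal range. Timp4, which overlaps Syn2 on the other strand, was at 0.796 and 0.491 FPKM in those Hoxb13-low libraries and at 1.31 to 2.08 in the other 8. Reads of the 2 genes cannot be told apart if counting ignored the strand.

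Adhesion molecules and a channel gave no common direction. L1cam (X chromosome, 73853778 to 73896105, minus strand) was at 27.8, 25.3, 24.7, 20.9 and 24.5 FPKM on the normal and 26.9, 36.9, 23.8, 22.9 and 37.1 on the pro-inflammatory diet. The Hoxb13-low libraries lay above all others, the remaining 3 within 20.9 to 27.8, the range of the normal diet. Its log2 fold change was 0.23 (SE 0.14, limma adjusted p = 0.412) with them and -0.00305 without them. L1cam overlaps Arhgap4 and Avpr2 in the annotation. Ncam1 was at 2.67, 1.83, 2.36, 1.74 and 2.16 against 1.99, 1.98, 1.41, 1.43 and 2.04 FPKM, lowest in pro-inflammatory diet libraries 3 and 4. Its log2 fold change was -0.18 (SE 0.11, adjusted p = 0.399), and -0.27 without the Hoxb13-low libraries. Scn9a, a sodium channel of sensory neurons, stayed between 0.0486 and 0.329 FPKM, on 8 to 52 reads.

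Of the transmitter genes, the nitric oxide synthase had the larger log2 fold change. Nos1, the neuronal synthase of inhibitory motor neurons (chromosome 5, 117781032 to 117958840, plus strand), was at 5.11, 3.22, 5.40, 4.12 and 3.32 FPKM in normal diet libraries 1 to 5 and at 3.68, 4.04, 2.12, 1.30 and 4.73 in pro-inflammatory diet libraries 1 to 5. Pro-inflammatory diet libraries 3 and 4 were the 2 lowest, and the other 3 lay inside the normal range. The means were 4.23 ± 0.998 and 3.17 ± 1.42 FPKM (SD, n = 5 each), with a log2 fold change of -0.38 (SE 0.24, limma adjusted p = 0.414). Without the Hoxb13-low libraries it was -0.68 (SE 0.23, adjusted p = 0.256). For acetylcholine, the vesicular transporter Slc18a3 was at 1.08, 0.925, 1.02, 0.705 and 1.05 against 1.31, 1.18, 0.925, 0.350 and 2.06 FPKM, on 14 to 79 reads. Its lowest and its highest value both came from the pro-inflammatory diet, in libraries 4 and 5. Chat, which makes acetylcholine, ran from 0.236 to 0.973 FPKM on the normal and from 0.344 to 0.76 on the pro-inflammatory diet. Slc18a3 lies inside Chat on the same strand, so the split of their reads is uncertain.

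Peptide genes were spread widely over the pro-inflammatory diet libraries, and galanin had the highest coefficient of variation of the 30 tested members, 77.9% over 10 libraries. Vip, the vasoactive intestinal peptide that relaxes gut muscle and whose upstream stretch holds TGACGT and TATAAA (chromosome 10, 5639218 to 5647617, plus strand), was at 23.5, 15.9, 23.9, 19.3 and 18.8 FPKM on the normal and at 16.4, 26, 12.9, 10.2 and 22.8 on the pro-inflammatory diet, libraries 1 to 5. Libraries 3 and 4 of the latter were the 2 lowest and Hoxb13-low library 2 the highest of 10. For Vip the log2 fold change was -0.25 (SE 0.23, limma adjusted p = 0.56), and -0.60 without the Hoxb13-low libraries (SE 0.16, adjusted p = 0.239). Gal, galanin (chromosome 19, 3409915 to 3414544, minus strand), was at 6.25, 3.32, 4.40, 3.38 and 2.88 against 3.58, 11.5, 2.07, 1.07 and 13.1 FPKM. Its 2 highest values came from the Hoxb13-low libraries and its 2 lowest from libraries 3 and 4 of the same diet. Its log2 fold change thus went from 0.17 (SE 0.50, adjusted p = 0.875) to -0.68 (SE 0.27, adjusted p = 0.288) when the Hoxb13-low libraries were left out.

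Penk, the precursor of enkephalins, was at 10.5, 7.17, 11.8, 10.1 and 7.81 against 10.1, 15.4, 4.85, 5.12 and 14.3 FPKM. Calb2, the calcium-binding protein calretinin of excitatory and sensory enteric neurons, was at 13.04, 8.58, 13.5, 10.5 and 9.20 against 10.9, 16.01, 7.96, 4.83 and 15.8 FPKM. For both, Hoxb13-low libraries 2 and 5 were the 2 highest of 10 and libraries 3 and 4 of that diet the 2 lowest. Cartpt, a peptide precursor of some enteric neurons, had the same libraries at its extremes, at low levels from 0.207 to 2.09 FPKM on 3 to 32 reads. Npy had another order. This peptide, made by enteric and sympathetic neurons (chromosome 6, 49822710 to 49829507, plus strand), was at 0.644, 0.451, 0.494, 1.10 and 1.07 on the normal and 2.09, 0.404, 0.962, 0.853 and 0.222 on the pro-inflammatory diet. The 2 Hoxb13-low libraries were its lowest and pro-inflammatory diet library 1 its highest, on 2 to 21 reads per library. Over the 4 tested genes of this role, the median log2 fold change was -0.06, and -0.54 without the Hoxb13-low libraries.

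**Figure D3:**
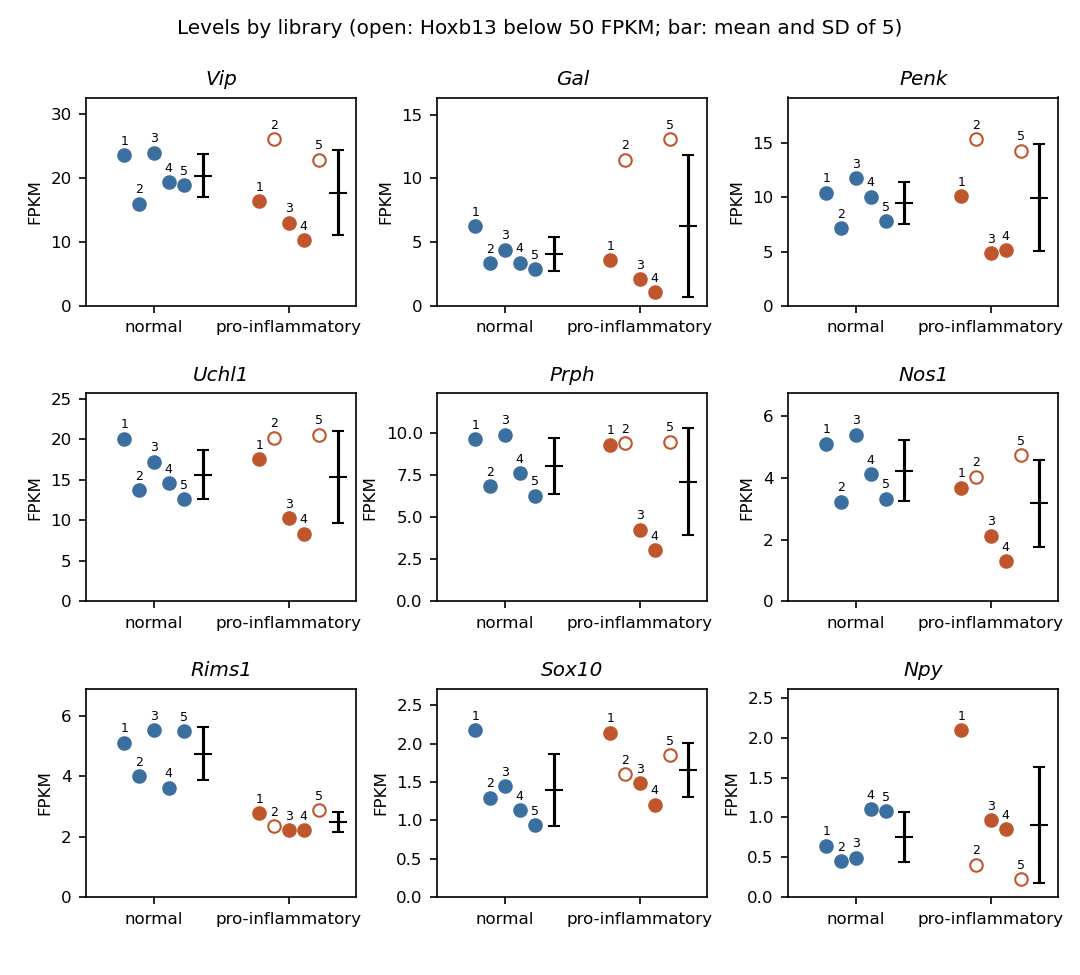
FPKM (vertical axes, from 0) of 9 genes in each normal diet library (blue) and pro-inflammatory diet library (orange, open where Hoxb13 was below 50 FPKM), with library numbers beside the points and the mean and SD of 5 as a bar. Gal reaches 11.5 and 13.1 in the open points and 2.07 and 1.07 in libraries 3 and 4, whereas all 5 Rims1 values of the pro-inflammatory diet, 2.21 to 2.88, lie below the lowest normal diet value of 3.61.

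Catecholamine genes were low. Dbh, dopamine beta-hydroxylase, was at 2.10, 1.90, 2.23, 1.71 and 1.87 FPKM on the normal and at 2.97, 2.53, 1.12, 0.741 and 2.62 on the pro-inflammatory diet. Its 3 highest and its 2 lowest values came from the pro-inflammatory diet, and the means were 1.96 ± 0.203 and 1.99 ± 0.994 FPKM (SD, n = 5 each; log2 fold change -0.06, limma adjusted p = 0.909). Th, the enzyme that starts catecholamine synthesis, was at 0.0341, 0, 0, 0.350 and 0.0930 against 0.791, 0.160, 0, 0.0677 and 0.0705 FPKM. It was listed at 0 in 3 libraries, had 25 reads in pro-inflammatory diet library 1 and at most 11 in any other. With no filter on low values its log2 fold change was 0.13 (SE 0.16, limma adjusted p = 0.711).

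None of the 5 glial members had pro-inflammatory diet libraries 3 and 4 as its 2 lowest. Sox10, the transcription factor of enteric glia and their precursors (chromosome 15, 79154908 to 79165240, minus strand), was at 2.17, 1.29, 1.44, 1.13 and 0.938 FPKM on the normal and at 2.14, 1.60, 1.48, 1.20 and 1.85 on the pro-inflammatory diet, libraries 1 to 5. Libraries 3 and 4 of that diet lay inside the normal range of 0.938 to 2.17. Its log2 fold change was 0.16 (SE 0.15, limma adjusted p = 0.56), and 0.13 without the Hoxb13-low libraries. S100b, a calcium-binding protein of glia, was at 1.61 ± 0.386 and 1.82 ± 0.487 FPKM (SD, n = 5 each). Dip2a, which overlaps S100b on the other strand, ran from 11.8 to 15.6 FPKM. Ednrb was at 2.77, 1.97, 2.76, 1.87 and 2.16 against 2.27, 3.52, 1.64, 1.93 and 2.79 FPKM, and Erbb3 at 89.2, 67.00, 58.01, 49.3 and 70.1 against 57.6, 70.1, 45.6, 65.6 and 84.1 FPKM. Both were lowest in pro-inflammatory diet library 3, while library 4 lay inside their normal ranges. Gfap, the glial filament protein, lay below the level for testing at 0.71 to 1.0 FPKM on the normal and 0.963 to 1.35 on the pro-inflammatory diet. With no filter on low values its log2 fold change was 0.23 (limma adjusted p = 0.229). In that fit it was the 1 member of 37 that was higher at an unadjusted p under 0.05, beside 6.28% of all 18398 genes. Elavl3 and Rims1, 2 of 37, were lower, beside 7.56%.

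Across roles, the neuronal members set the pro-inflammatory diet libraries apart from each other. Libraries 3 and 4 of that diet were the 2 lowest of all 10 for 23 of the 37 members, and for 20 of the 30 tested ones, beside 6.58% of all genes tested. Library 3 lay below all 5 normal diet libraries for 22 tested members (24.8% of all genes) and library 4 for 23 (21.7% of all genes). The mean log2(FPKM + 1) of the 26 tested neuronal members was 2.06 and 1.85 there, 2.61, 2.73 and 2.80 in libraries 1, 2 and 5, and between 2.37 and 2.80 on the normal diet. The mean of the 4 tested glial members, with Erbb3 among them, was 2.42 and 2.54 in libraries 3 and 4, inside the normal range of 2.37 to 2.93. A further list of 13 glial and Schwann cell genes, 7 of them tested, differed in part. Its mean was 1.16 in library 3, below the normal range of 1.19 to 1.45, and 1.21 in library 4, inside it. The Hoxb13-low libraries were the 2 highest of 10 for 10 of the 37 members (Ret, Gfra1, Uchl1, L1cam, Gal, Penk, Cartpt, Calb2, Gfap and Ednrb) and for 8 of the 30 tested ones, beside 13.9% of all genes. They were the 2 lowest for Syn2 and Npy, and of these Syn2 was tested (17.4% of all genes). Among the normal diet libraries, library 1 was among the 2 highest of 10 for 18 members and library 3 for 11. The libraries were described this way after their values were seen.

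Of the markers of other cell types, those of adipocytes and leukocytes were lower in pro-inflammatory diet libraries 3 and 4 than in the other 3 of that diet. Adipocyte markers, 8 genes of which 7 were tested, had a mean log2(FPKM + 1) of 3.44, 4.13 and 3.42 in pro-inflammatory diet libraries 1, 2 and 5, of 1.62 and 1.39 in libraries 3 and 4, and of 1.12 to 2.88 on the normal diet. Adipoq, which defines fat cells, was at 11.1, 20.5, 0.574, 0.490 and 9.85 FPKM in pro-inflammatory diet libraries 1 to 5, and Lep ran from 0 to 0.596 FPKM over all 10. Their log2 fold changes were positive in 7 of 7 with a median of 0.70, and without the Hoxb13-low libraries negative in 5 of 7 with a median of -0.06. Leukocyte markers, positive in 9 of 9 tested genes (median 0.33) and in 7 of 9 without the Hoxb13-low libraries (median 0.14), ran from 2.47 to 2.92 on the normal diet and stood at 3.29, 3.63, 2.59, 2.62 and 3.23 in pro-inflammatory diet libraries 1 to 5. Markers of interstitial cells of Cajal and PDGFRA cells, negative in 6 of 8, ran from 3.69 to 3.95 and from 3.32 to 3.85. Epithelial markers, positive in 8 of 12, ran from 8.55 to 8.99 and from 8.83 to 9.25, and those of enteroendocrine cells, positive in 5 of 11 and sharing vesicle proteins with neurons, from 3.25 to 3.62 and from 3.28 to 3.51. Melanocyte markers, of neural crest origin too, had 4 of 6 genes in the table, 0 tested, and a mean of at most 0.471. Library 3 of the pro-inflammatory diet had the most reads on genes of all 10, 18341956, and library 4 had 16537449. The part of other tissues in the members' values was not tested. Smooth muscle is described next by correlation and as a covariate. Its markers also differed between the diets, so these fits cannot separate its part from that of the diet.

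Smooth muscle, among which the ganglia lie, was lower on the pro-inflammatory diet in 15 of 15 marker genes by the sign of the log2 fold change (12 at an unadjusted limma p under 0.05, beside 9.25% of all genes, and 0 at an adjusted one). The list of these genes was chosen with earlier results of these data known. Their mean log2(FPKM + 1) ran from 6.69 to 7.24 on the normal and from 6.52 to 6.90 on the pro-inflammatory diet. Over the 10 libraries, Pearson's r of a member with this mean was positive for 28 of 30 members, with a median of 0.37 and a range from -0.14 (L1cam) to 0.84 (Rims1), beside a median of 0.05 for all genes. These are 30 relations, and both sides share each library's scaling. Without the 2 libraries farthest from the median score, normal diet libraries 1 and 5, the median was 0.37 with 26 positive, and with values centred within each diet it was 0.36. At an unadjusted permutation p under 0.05 (100000 resamples, two-sided), 3 members followed the score upward, beside 5.95% of all genes.

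Of these 3, Rims1 had r = 0.84 (permutation p = 0.00417, adjusted over all genes 0.329; Spearman's rho = 0.78, p = 0.0109), 0.73 without those 2 libraries and 0.66 with values centred within each diet. Ncam1 had r = 0.74 (permutation p = 0.0144, adjusted 0.437; rho = 0.75, p = 0.0172), 0.56 without them and 0.62 within diets. Elavl4 had r = 0.73 (permutation p = 0.018, adjusted 0.452; rho = 0.72, p = 0.0235), 0.71 without them and 0.64 within diets. With the smooth muscle mean as a covariate, the median log2 fold change of the members was 0.11, 18 of 30 members had the opposite sign and 5 were negative. Rims1 was at -0.49 in that fit (limma adjusted p = 0.24). Without the Hoxb13-low libraries and with the covariate, the median of the members was -0.18 and the glial median 0.17. There 1 member was lower at an unadjusted limma p under 0.05, against 8 without the covariate. Over all 12345 genes, the count at such a p in either direction fell from 1903 to 1429. Lower genes alone were not counted over all genes with the covariate, so the members' count has no share to stand beside. The smooth muscle mean averaged 7.03 on the normal diet and 6.65 in the remaining pro-inflammatory diet libraries, so the 2 cannot be told apart.

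**Figure D4:**
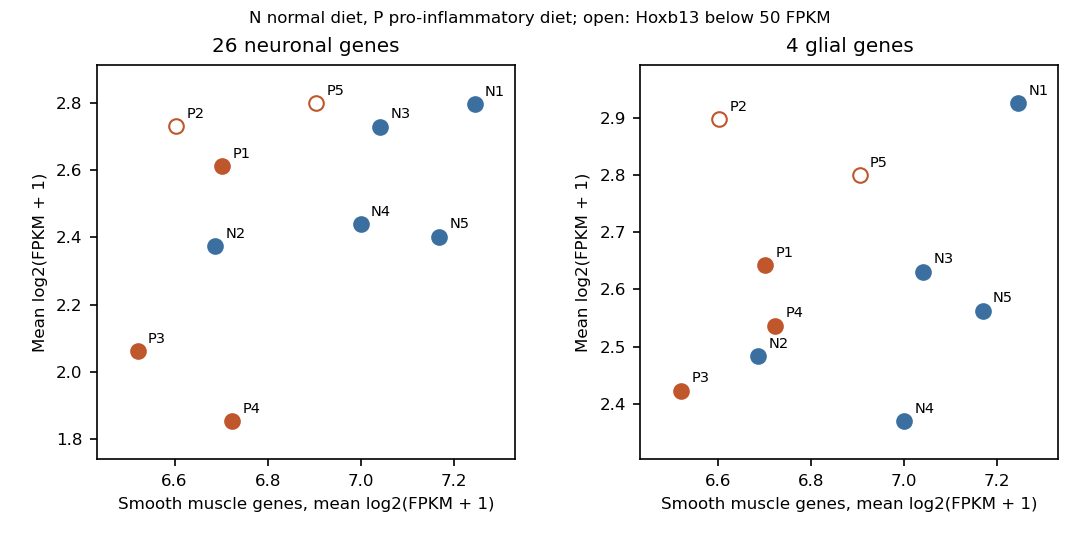
Mean log2(FPKM + 1) of the 26 tested neuronal genes (left) and the 4 tested glial genes (right) against that of 15 smooth muscle genes, with 1 point per library (blue N for normal diet, orange P for pro-inflammatory diet, open where Hoxb13 was below 50 FPKM). Neuronal values of P3 and P4 lie lowest at 2.06 and 1.85, with smooth muscle means of 6.52 and 6.72. P2 and P5 lie at 2.73 and 2.80 with smooth muscle means of 6.60 and 6.90. The smooth muscle mean of P3 is the lowest of all libraries. Those of P3 and P2 lie below the normal diet range of 6.69 to 7.24, and those of P4 and P5 lie inside it.

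Further genes of the enteric nervous system, 91 listed by role, were described by the same counts. All 91 were in the table and 50 were tested, of which 0 passed in limma. At an unadjusted p under 0.05, 5 of 50 were lower and 0 were higher, beside 9.25% and 8.16% of all genes. Log2 fold changes were negative in 39 of 50, with a median of -0.07, and without the Hoxb13-low libraries in 46 of 50, with a median of -0.18 and 10 lower at an unadjusted p under 0.05 (beside 7.36% of all genes). Transcription factors were negative in 5 of 6. Pbx3, a homeobox gene of enteric neurons, was at 6.74 ± 1.14 against 5.03 ± 0.325 FPKM (SD, n = 5 each; limma adjusted p = 0.173). Synaptic vesicle genes were negative in 8 of 9, the exception being Rab3a, a vesicle GTPase, with a log2 fold change of 0.15.

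Cytoskeletal and adhesion genes were negative in 8 of 8, among them Map1b, a microtubule-associated protein, with a log2 fold change of -0.32 (limma adjusted p = 0.26). Channels were negative in 3 of 4. Transmitter and receptor genes were negative in 7 of 9. Tac1, the precursor of substance P in excitatory motor neurons, was at 15.8 ± 1.77 against 12.7 ± 1.65 FPKM (SD, n = 5 each; limma adjusted p = 0.193), and Htr3a, a serotonin receptor channel, had a log2 fold change of -0.38 (limma adjusted p = 0.283). Signals of the GDNF, endothelin and neuregulin systems were negative in 3 of 7. Glial and Schwann cell genes were negative in 5 of 7 with a median of -0.02, and Ngfr, a neurotrophin receptor, was at 2.69 ± 0.641 against 2.33 ± 0.452 FPKM (SD, n = 5 each; limma adjusted p = 0.57).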

How the data were processed

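RNA-seq of wild-type mouse colon was compared between 5 libraries of a normal and 5 of a pro-inflammatory diet, grouped by the treatment label. The authors deposited 1 table of FPKM values. Per the labels' protocols, RNA passed an integrity check and went into stranded mRNA libraries that were read in pairs. Tools listed in the submitters' processing notes are Bowtie2, HISAT2, Trimmomatic, Cufflinks, StringTie, HTSeq and DESeq with mm10, without their roles. FPKM divides by each library's total, so very abundant genes lower all others.

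Each gene's values were whole multiples of 1 read (within 0.001 read) in 18398 of 18398 genes. Reads give depth and a voom fit. The 12345 genes with a mean of at least 1 FPKM were fitted with limma 3.58.1 (R 4.3.3) on log2(FPKM + 1), with eBayes following the mean and Benjamini-Hochberg adjustment over all of them (threshold 0.05). Fold changes on this scale understate those of low genes. Scripts were tested on simulated data. Members, roles, marker lists and tests were chosen with earlier results of these data known. Values in every library are given for members without overlap, the 12 tested members with the smallest unadjusted p and the 2 highest of each role, and for Gal, Penk and Npy, which were chosen after their values were seen. Coordinates are from GENCODE M21 on GRCm38, 1-based. The smooth muscle permutation p-values were planned to be adjusted over the members and are adjusted over all genes instead. Alternatives changed the pseudocount, filter, scaling, variance model, weights, test and covariates and left out libraries. The covariate fit without the Hoxb13-low libraries was added after the data were seen. A gene that the rule for other genes takes is not reported here.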

Additional observations from a re-analysis of the deposited data

Results flagged for a closer look

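In 74 groups of 5 libraries (37 genes in each diet), 3 had a library far from the other 4, by Dixon's ratio of the gap to the range at its 95% critical value of 0.71. Chance gives about 1 in 20 such groups. Nefl, a neurofilament gene, was at 1.17 FPKM in normal diet library 2 (62 reads) and at 2.01 to 2.25 in the other 4, with a ratio of 0.814. S100b was at 2.68 FPKM in the Hoxb13-low pro-inflammatory diet library 2 (78 reads) and at 1.53 to 1.70 in the other 4, with a ratio of 0.821. Th was at 0.791 FPKM in pro-inflammatory diet library 1 (25 reads) and at 0 to 0.160 in the other 4, with a ratio of 0.745.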

How the results depend on the processing

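The count of 0 members past the adjusted limma threshold held under each alternative that was run. Depth limits the members near 1 FPKM, with under 100 reads in many libraries, and the FPKM scale does not remove differences in tissue make-up. Members lower at an unadjusted p numbered 1, and 8 with array weights or without the Hoxb13-low libraries, 2 with no filter (1 member was then higher), 0 with a mean of at least 5 FPKM (Rims1 is then not tested, and the lower members without overlap are 0) and 1 to 2 with each library left out. Members with a negative log2 fold change numbered 23, and 12 at 5 FPKM (fewer members tested), 5 with the smooth muscle covariate and 15 to 26 with each library left out, the 15 without pro-inflammatory diet library 4. The median log2 fold change of all members, -0.11, was 0.11 with the covariate, -0.38 with array weights (27 negative) and -0.21 to -0.00121 with each library left out. That of neuronal members, -0.13, was 0.0884 with the covariate, -0.41 with array weights and -0.22 (without pro-inflammatory diet library 2) to -0.0164 (without its library 4) with each library left out. Leaving out any of the 5 libraries of that diet, or normal diet library 1 or 3, moved both medians by over 1.5 times. The glial median, 0.07, was -0.0553 with array weights and -0.0707 without the Hoxb13-low libraries. At 5 FPKM it was -0.0469, which is the value of Erbb3 alone, the only glial member left. With each library left out it ran from -0.0298, without pro-inflammatory diet library 2, to 0.13. Members following the smooth muscle score numbered 3, and 0 at 5 FPKM, 6 without the Hoxb13-low libraries and 1 to 6 with each library left out: 1 when normal diet library 1 or library 3 of the other diet was left out, 5 without normal diet library 5 and 6 without pro-inflammatory diet library 2. Except where fewer genes or samples entered, the cause was not tested.

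Single log2 fold changes turned sign with array weights for Gfra1 (-0.0739), Slc18a3 (-0.13), Gal (-0.48) and Ednrb (-0.13). Without the Hoxb13-low libraries they did so for Gfra1 (-0.0869), Syn2 (0.00538), L1cam (-0.00305), Slc18a3 (-0.10), Gal (-0.68) and Ednrb (-0.16), and with the covariate added to that for Nefl (0.0786), Nefm (0.18), Syn2 (0.19), Slc18a3 (-0.0682), Gal (-0.44) and Erbb3 (0.0662). With the covariate and all libraries they did so for Elavl4 (0.0569), Hand2 (0.0816), Ret (0.0763), Uchl1 (0.19), Tubb3 (0.20), Prph (0.0118), Nefl (0.0952), Nefm (0.12), Sncg (0.17), Snap25 (0.22), Syt1 (0.0797), Rab3c (0.0238), Ncam1 (0.014), Vip (0.028), Penk (0.33), Calb2 (0.21), Dbh (0.10) and Erbb3 (0.28). With each library left out, the values of genes that turned ran from -0.22 to 0.16 for Calb2, -0.17 to 0.12 for Dbh, -0.0697 to 0.12 for Ednrb, -0.15 to 0.0694 for Erbb3, -0.17 to 0.52 for Gal, -0.21 to 0.0122 for Nefl, -0.11 to 0.00936 for Nefm, -0.22 to 0.15 for Penk, -0.0371 to 0.26 for Slc18a3, -0.28 to 0.0313 for Snap25, -0.25 to 0.10 for Sncg, -0.28 to 0.0941 for Tubb3 and -0.20 to 0.0967 for Uchl1.

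The replicate block, with the library number as a block, gave 0 members past the adjusted threshold, 1 lower and 0 higher at an unadjusted p, 23 negative, and the same medians of -0.11, -0.13 and 0.07. Over all genes it moved the count at an unadjusted p from 2149 to 1836. The correlation of deviations between equal numbers was -0.152, -0.140, -0.125, 0.0613 and -0.263, and no library correlated best with its own number, so the numbers are not taken as pairs.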

Other observations

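Several genes outside the 37 followed the Hoxb13-low libraries and were chosen after their values were seen. Tbx3, a T-box factor of enteric neurons, was at 10.3 and 7.29 FPKM in pro-inflammatory diet libraries 2 and 5 and at 1.49 to 3.06 in the other 8. Edn3, the ligand of Ednrb, was at 4.75 and 6.15 FPKM in these 2 libraries and at 0.736 to 2.42 in the others. Sst, somatostatin, and Chrnb4, a nicotinic receptor subunit of enteric neurons, had their highest values of 36.1 and 8.93 FPKM over all 10 libraries there as well.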
